A study of Mus musculus with 12 samples.

Results

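GABA and glutamate are the main inhibitory and excitatory transmitters of the brain, and the genes described here encode the subunits of their receptors. Members were chosen by gene symbol: Gabra, Gabrb, Gabrg, Gabrd, Gabre, Gabrq, Gabrr and Gabbr for GABA, and Gria, Grik, Grin, Grid and Grm for glutamate. This gave 46 genes of the 55416 gene identifiers in the tables, 20 for GABA and 26 for glutamate. Grid2ip, which encodes a protein that binds a receptor and is no subunit, and the antisense gene Grin1os were left out. The rule used gene symbols only, but it was set with earlier results of these data known.

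The 6 mice were male BALB/c animals aged 7 weeks per the labels, and RNA was sequenced from the hypothalamus and from the gastrocnemius (calf muscle) of each. CT-26, a colon carcinoma line of the mouse, had been placed under the abdominal skin of 3 of them; they are labelled cachectic, meaning that they lost body tissue with the tumour. Their weight was 7 to 10% below that of healthy mice by day 10, and tissue was taken on day 25. The other 3 are labelled normal and had no tumour injection, and the labels give no collection day for them. Each numbered mouse gave both tissues, so there were 12 libraries in 4 groups of 3, called CT-26 and control below. The model has 1 tumour line in 1 strain and sex, with tissue taken at 1 time, and food intake is not given in the sources used here.

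The GABA-A receptor is a chloride channel of 5 subunits, most often built from alpha, beta and gamma subunits. The GABA-B receptor is a G-protein-coupled pair of Gabbr1 and Gabbr2. AMPA, kainate and NMDA receptors are glutamate-gated cation channels, the Grid subunits are their delta relatives at synapses, and the metabotropic Grm receptors signal through G proteins. In the hypothalamus GABA and glutamate carry most of the fast signalling between neurons, including those of the arcuate nucleus that control feeding.

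The depth was 27195316 to 52535761 expected counts per hypothalamus library and 26015741 to 42771331 per gastrocnemius library. All 9 markers of hypothalamic neurons and nuclei were measured in the hypothalamus, and all 5 fast muscle markers in the gastrocnemius. The summed level of 8 general neuron markers in the hypothalamus was 3835 to 4016 CPM (depth-scaled counts) in CT-26 and 3835 to 4186 CPM in control mice, so the ranges overlapped. Of the 8, 1 was called lower. This was Tubb3, with 297.4, 290.6 and 288.3 CPM in CT-26 and 336.6, 368.5 and 356.4 CPM in control mice. The summed level of 6 oligodendrocyte markers was 2975 to 3247 CPM in CT-26 and 4456 to 4974 CPM in control mice. Of these 6, 5 were called lower, as were 3 of 6 astrocyte markers. In bulk tissue, fewer cells of a type and less RNA per cell cannot be told apart. Marker sums of the following regions did not overlap between the groups. The 9 hypothalamic markers gave 1852 to 2035 CPM in CT-26 and 1312 to 1648 CPM in control mice. Of these, 2 were called higher and 1 lower. The 6 thalamus markers gave 326 to 340 against 379 to 419 CPM and 6 striatum markers 104 to 113 against 96.9 to 102 CPM. The 6 cortex and hippocampus markers gave 37.8 to 42.9 against 44.2 to 51.9 CPM. The part of dissection in the results was not tested.

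In the hypothalamus the members together held 0.121 to 0.130% of all TPM (transcript abundance corrected for transcript length). Levels of different genes are compared in TPM only, as the mean over the 6 mice. Gabbr1 was the highest member at 260.7 ± 6.96 TPM (SD, n = 6), followed by Grin1, the obligatory NMDA subunit, at 112.3 ± 4.71. Gria1 stood at 80.3 ± 7.06 TPM. A step, meaning that the ranges over the 6 mice did not touch, lay above a group of Grik5 (58.4 ± 2.67), Gria2 (57.0 ± 4.41), Gabra2 (52.7 ± 4.16) and Gabra3 (50.01 ± 2.84). Further such steps lay below Gabra3 and between Gabrg1 at 25.1 ± 3.00 and Grid1 at 17.3 ± 1.09 TPM, and below it the levels ran down without a gap to Gabrb2 at 3.71 ± 0.98 TPM. In all, 39 of the 46 members had a mean of at least 1 TPM. The other 7 were Gabrr2 (0.60), Gabrd (0.37), Grin3b (0.19), Gabrr1 (0.09), Gabrr3 (0.01), Grm6 (0.005) and Gabra6, which was listed at 0 in all 6 libraries.

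**Figure D1:**
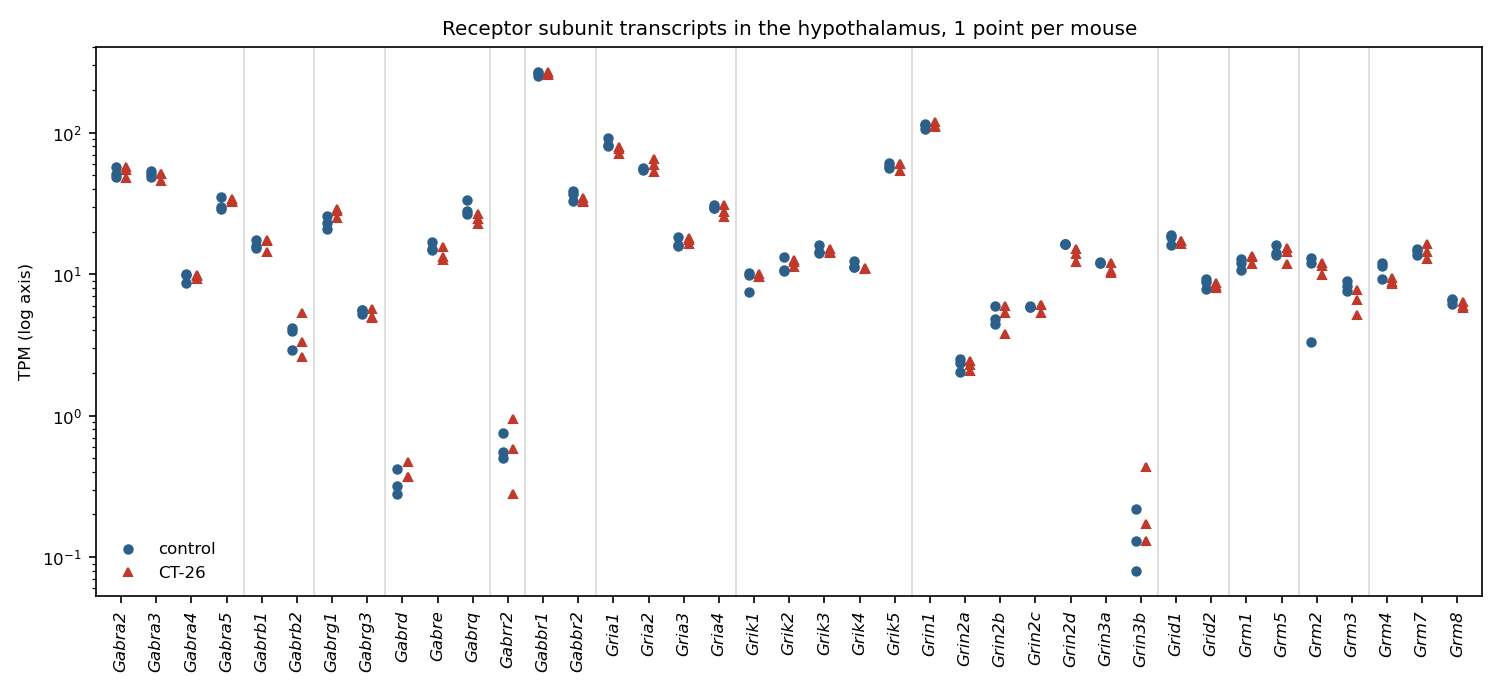
TPM on a log axis of 39 members tested in the hypothalamus, ordered by receptor type, with 1 blue circle per control mouse and 1 red triangle per CT-26 mouse (3 of each). Gabbr1 lies highest at 252 to 269 TPM, and the single control circle far below its group is Grm2 in control mouse 1 at 3.33 TPM.

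Among GABA-A subunits the alpha subunits, which with gamma set the benzodiazepine response, included Gabra2, Gabra3 and Gabra5 at 12.1%, 11.5% and 7.39% of the TPM of all GABA-A subunits. Gabra2 stood at 47.8, 54.4 and 57.3 TPM in CT-26 mice 1 to 3 and at 57.2, 48.7 and 51.1 TPM in control mice 1 to 3. Of the beta subunits, which with alpha form the GABA site, Gabrb1 had 14.3, 17.3 and 17.3 TPM in CT-26 and 17.5, 15.2 and 15.8 TPM in control mice. The groups overlapped for both.

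The theta subunit Gabrq, a rarer subunit known from the hypothalamus and brainstem, made up 6.20% of GABA-A TPM and the epsilon subunit Gabre 3.38%, while the delta subunit Gabrd, known for extrasynaptic receptors elsewhere in the brain, made up 0.0855%. Gabrq had 22.6, 26.5 and 24.7 TPM in CT-26 mice and 33.2, 26.8 and 28.1 TPM in control mice. All 3 CT-26 values lay below the control values. The rho subunits, which form the receptors first described in the retina, were led by Gabrr2, with 0.94, 0.28 and 0.58 TPM against 0.55, 0.50 and 0.75 TPM.

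For the GABA-B pair, Gabbr1, which binds GABA, gave 254.1, 268.6 and 258.1 TPM in CT-26 and 252.2, 267.6 and 263.9 TPM in control mice. Gabbr2, which couples to the G protein and brings Gabbr1 to the surface, averaged 34.7 TPM. Gabbr1 thus held 88.3% of the TPM of the pair.

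Among AMPA subunits Gria1 led with 43.8% of the TPM, ahead of Gria2, the subunit that makes the channel impermeable to calcium, with 31.1%. Gria1 stood at 71.2, 79.8 and 76.1 TPM in CT-26 and at 92.3, 80.3 and 82.4 TPM in control mice. Every CT-26 value was below every control value, with the closest pair at 79.8 and 80.3 TPM.

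Grik5, a kainate subunit that works only with Grik1 to Grik3, held 55.4% of the kainate TPM. It had 59.8, 60.2 and 53.9 TPM in CT-26 and 61.2, 56.7 and 58.4 TPM in control mice. Grin1 held 73.8% of the NMDA TPM, with 119.1, 112.3 and 108.8 TPM in CT-26 and 105.5, 114.4 and 113.8 TPM in control mice. The groups overlapped for both genes. Among the NMDA subunits that pair with Grin1, Grin2d held 9.88% and Grin3a 7.52%, while Grin2b and Grin2a held 3.33% and 1.495%. The effective lengths that divide the counts of Grin2b and Grin2a were 15833 and 14055 bases, against 5050 for Grin2d and 3620 for Grin1, so the order in TPM rests on these lengths.

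Grid1, a delta subunit that links the synapse through cerebellin proteins, had 17.1, 17.1 and 16.4 TPM in CT-26 and 18.4, 18.8 and 16.1 TPM in control mice. Of the metabotropic receptors, the group I receptor Grm5, which raises calcium through phospholipase C, had 11.7, 14.3 and 15.2 TPM against 16.2, 13.7 and 14.1 TPM. The group III receptor Grm7, an inhibitory receptor of nerve terminals, had 12.7, 16.3 and 14.4 TPM against 13.8, 15.1 and 14.6 TPM. These 3 genes overlapped between groups. Grm2, a group II autoreceptor, had 11.98, 11.5 and 9.84 TPM in CT-26 mice and 3.33, 12.9 and 12.1 TPM in control mice. Control mouse 1 stood apart for Grm2 from all 5 other mice.

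Summed over a family, the groups overlapped for every receptor type. GABA-A subunits summed to 432 ± 26.7 TPM in CT-26 and 437 ± 10.3 TPM in control mice (SD, n = 3 each). The sums were 179 ± 12.3 and 187 ± 6.91 TPM for AMPA, 151 ± 6.41 and 153 ± 5.75 TPM for NMDA, and 105 ± 3.81 and 106 ± 4.14 TPM for kainate subunits. GABA-B gave 294 ± 8.63 and 298 ± 11.03 TPM, metabotropic receptors 73.6 ± 5.43 and 76.0 ± 7.07 TPM, and delta subunits 25.1 ± 0.760 and 26.4 ± 2.10 TPM.

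**Figure D2:**
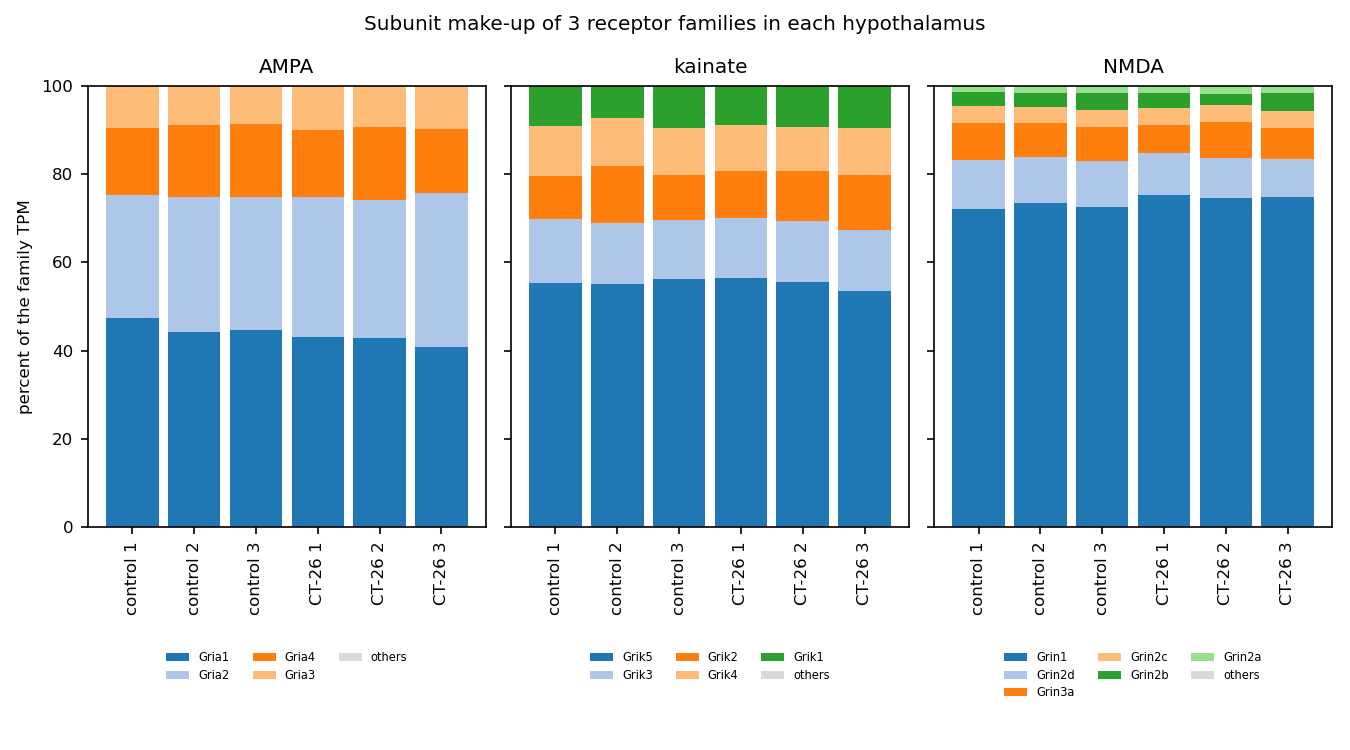
Share of each subunit in the summed TPM of its family, in percent, as stacked bars for the 3 control and the 3 CT-26 hypothalami; subunits with a mean share under 1% are drawn as others. Grik5 held 53.5 to 56.5% of kainate, and its groups overlapped. Gria1 held 43.1, 42.7 and 40.8% of AMPA in CT-26 mice and 47.4, 44.3 and 44.55% in control mice. Grin1 held 75.3, 74.6 and 74.9% of NMDA in CT-26 mice and 72.1, 73.4 and 72.6% in control mice. For Gria1 and Grin1 the groups did not overlap, nor did they for Gria2, Grik4 and Grin2d. The shares were not tested.

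The main comparison in the hypothalamus asked which subunits differed between CT-26 and control mice. Of the 46 members 42 passed the filter on low counts; Gabra6, Gabrr1, Gabrr3 and Grm6 did not. Only 1 of the 42, or 2.38%, was called at an adjusted p below 0.05 with edgeR's quasi-likelihood test, against 8.77% of all 17961 genes tested (3.94% called higher and 4.83% lower). The 1575 calls were 708 higher and 867 lower; with library totals in place of TMM scaling they were 882 and 647. The member log2 fold changes, CT-26 over control, had a median of 0.025, against -0.003 for all genes. Their median size regardless of sign was 0.07, against 0.13 for all genes. Restricted to a mean log2 CPM of at least 1, these sizes were 0.06 for 39 members and 0.11 for 14101 genes. Those 39 members lay between -0.32 and 0.30, with a median standard error of 0.07 over the tested members. The feeding peptide gene Agrp, named here after its value was seen and no measure of a usual change, had a log2 fold change of 2.82 ± 0.24 in the same fit.

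The member called was Grin2d (ENSMUSG00000002771, GRCm38 chromosome 7, 45831883 to 45878378, minus strand), an NMDA subunit of interneurons and deep brain nuclei that gives slowly closing channels. Its values were 71.8, 63.9 and 60.2 CPM in CT-26 mice and 75.5, 77.5 and 76.6 CPM in control mice. The CT-26 mice all lay below the control mice. The log2 fold change was -0.23 ± 0.06 (SE), which is 1.17-fold lower, with an adjusted p of 0.0475 in edgeR. The call was close to the threshold: it was kept in 1 of 6 fits that each left out 1 mouse (without CT-26 mouse 1) and in 2 of 8 other settings. An antisense gene covers 9.7% of the Grin2d exons, and the strand setting of the counting is not given in the sources used here.

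At an unadjusted p below 0.05 there were 7 members (of 42) and 4512 genes, or 25.1% of those tested. Beside Grin2d these were Gabrg1, Gabrq, Grm3, Gabre, Grm4 and Grin3a, with adjusted p of 0.073 to 0.181, so none of these 6 passed in that fit. DESeq2 called Gabrg1 beside Grin2d, and edgeR with no filter on low counts called Gabrg1, Gabrq, Grm3 and Grm4 beside it. Gabrg1, a gamma subunit, had 94.9, 103.9 and 109.4 CPM in CT-26 and 96.3, 78.9 and 85.4 CPM in control mice, a log2 fold change of 0.24 ± 0.08. Grm3, the group II receptor of glia and neurons, had 13.7, 19.9 and 18.0 CPM against 21.7, 23.3 and 19.6 CPM, a log2 fold change of -0.32 ± 0.12. For each gene 1 CT-26 mouse lay inside the control range. Grm4, a group III receptor, gave -0.23 ± 0.10, Gabrq -0.22 ± 0.08, Gabre -0.16 ± 0.07 and Grin3a, an NMDA subunit that lowers calcium entry, -0.13 ± 0.06. Without control mouse 1 Gabrg1 and Grm4 were called (log2 fold changes 0.32 and -0.35, adjusted p 0.0221 and 0.0126 in edgeR), and Grin2d was not. Grm2, the gene in which that mouse stood apart, had a log2 fold change of 0.30 ± 0.34 with it and -0.10 ± 0.08 without it.

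The groups did not overlap in CPM for 5 of 42 members, Gria1, Gria4, Gabrq, Grin2d and Grin3a, or 11.9%, against 30.3% of all genes. All 5 were lower in CT-26 mice. Gria1 had 349.8, 375.4 and 377.9 CPM against 433.5, 385.9 and 388.0 CPM (log2 fold change -0.13 ± 0.06, adjusted p 0.203). Gria4, an AMPA subunit with fast gating, had 103.5, 118.7 and 116.5 CPM against 121.4, 121.2 and 120.0 CPM (-0.10 ± 0.06, adjusted p 0.314). Neither passed the edgeR test.

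**Figure D3:**
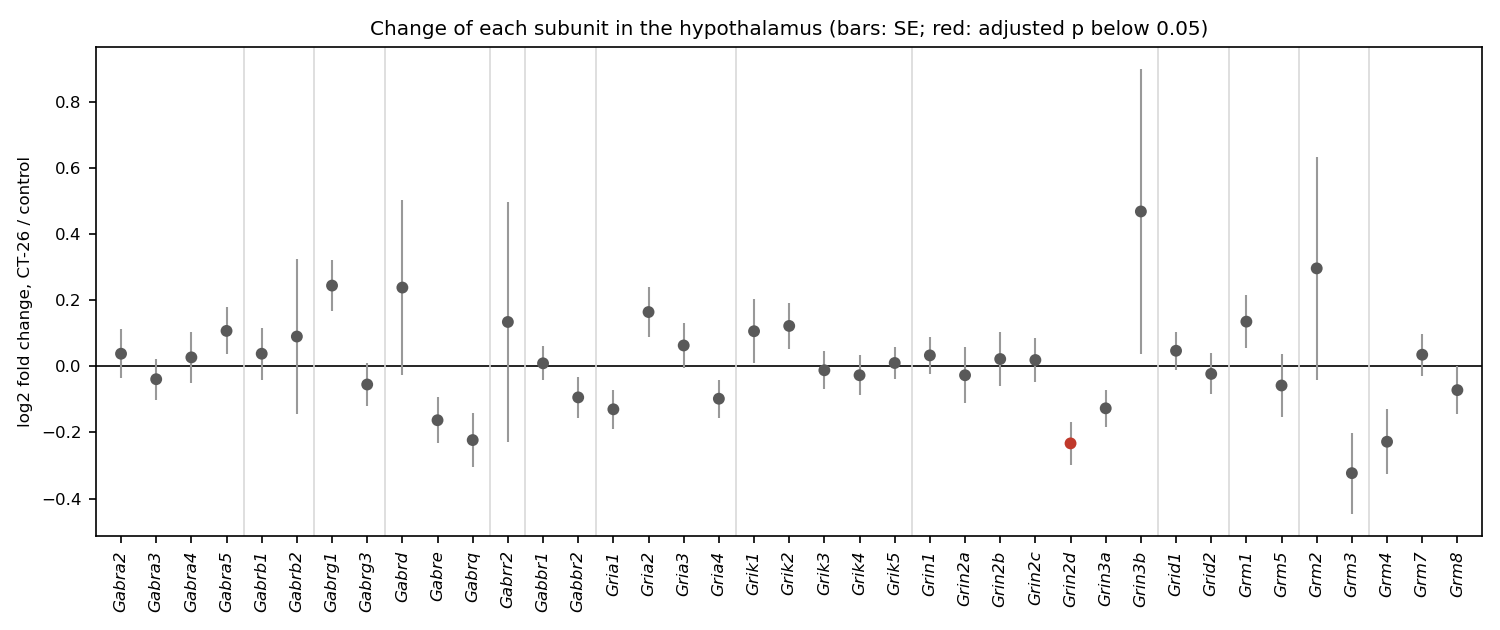
Log2 fold change (CT-26 over control) of 39 members tested in the hypothalamus, with bars for the standard error; grey vertical lines separate receptor types and the red point is the 1 member with an adjusted p below 0.05. Grin2d is red at -0.23, and the widest bars belong to the scarce Grin3b, Gabrr2 and Gabrd and to Grm2.

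Subunit pairs whose balance changes receptor properties were compared as log2 ratios of TPM within each mouse. With 3 mice against 3 the exact two-sided permutation test cannot give a p below 0.1. In 5 of the 16 ratios the groups did not overlap, so these 5 reached 0.1 (0.32 after Benjamini-Hochberg adjustment over the 16), and none passed. Gria1 over Gria2 was 0.44, 0.44 and 0.23 in CT-26 and 0.76, 0.54 and 0.56 in control mice, a difference of -0.24 in the mean. Gria4 over Gria2 differed by -0.19 and Gabbr1 over Gabbr2 by 0.12. For the NMDA switch ratio Grin2a over Grin2b the difference was 0.01, with an exact p of 1.

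Many GABA-A genes lie in clusters, which were read on GRCm38. On chromosome 5, Gabrg1, Gabra2, Gabra4 and Gabrb1 lie between 70751047 and 72149037, with 1 other coding gene, and their log2 fold changes ran from 0.03 to 0.24. The 3 genes on the X chromosome (72255999 to 72842602), Gabre, Gabra3 and Gabrq, gave -0.22 to -0.04. No clustered gene was called in the hypothalamus. Gabra4 and Gabrb1 share 46 exon bases on opposite strands.

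Genes that make, carry, anchor or modify these receptors and their transmitters were taken as 7 lists. Of 110 partner genes tested in the hypothalamus 1 was called higher and 12 lower, or 11.8% in all, against 8.77% of all genes. Among 34 excitatory scaffold genes 6 were called lower (17.65%, against 4.83% of all genes) and none higher. Shank3, Shank2 and Shank1, which build the deep scaffold of excitatory synapses, fell by 0.40 ± 0.05, 0.27 ± 0.04 and 0.26 ± 0.06 on the log2 scale (adjusted p 0.00143, 0.0053 and 0.018 in edgeR). Shank3 had 84.7, 79.3 and 80.7 CPM in CT-26 and 110.1, 110.2 and 102.5 CPM in control mice, and the groups lay well apart. The other 3, Homer1, Lrrtm2 and Dlg4 (PSD-95), are named here after their values were seen, with log2 fold changes of -0.50, -0.23 and -0.18. The median over this list was -0.05. With each mouse left out in turn 2 to 6 of the list were called lower; Shank3 and Shank2 were called in all 6 such fits and Shank1 in 3 (lost without CT-26 mouse 1, CT-26 mouse 2 or control mouse 2).

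Among 22 AMPA and kainate auxiliary genes 4 were called lower (18.18%, against 4.83% of all genes) and none higher. Cacng4 and Cacng7, transmembrane proteins that carry AMPA receptors to the surface, fell by 0.26 ± 0.05 and 0.24 ± 0.06 on the log2 scale (adjusted p 0.00857 and 0.035 in edgeR). Olfm2, an olfactomedin bound to AMPA receptors, fell by 0.26 ± 0.06 (adjusted p 0.0244). The last was Nptx1, a neuronal pentraxin, at -0.25, named after its value was seen. Only Cacng4 kept its call in all 6 fits that left out a mouse; Cacng7 was kept in 1 (without control mouse 1) and Olfm2 in 2 (without CT-26 mouse 1 or control mouse 1), and 1 to 3 of the list were called in those fits. With library totals 2 of this list were called and with limma on TPM 0, against 5 and 3 of the excitatory scaffold genes, all lower; with all 12 libraries in 1 fit neither list held a call. The 6 oligodendrocyte markers given above moved the same way; their part in these results was not tested.

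Each of the other lists held 0 or 1 call, beside 8.77% of all genes called (3.94% higher and 4.83% lower). A single call made up 5.56% of the inhibitory scaffold and trafficking genes and 12.5% of the GABA-B auxiliary genes. For glutamate synthesis and transport it made up 7.14%. Trak2, a motor adaptor for mitochondria and GABA-A cargo, was the 1 of 18 inhibitory scaffold and trafficking genes called (-0.26 ± 0.06, adjusted p 0.0237; called in 2 of 6 fits that left out a mouse, without control mouse 1 or control mouse 3). Ajap1, a surface protein that binds the GABA-B receptor, was the 1 of 8 GABA-B auxiliary genes (-0.23 ± 0.06, adjusted p 0.0362, lost whichever mouse was left out). None of 9 genes for GABA synthesis and transport and none of 5 glycine receptor genes was called by edgeR; 1 and 0 of them had an unadjusted p below 0.05, and DESeq2 called 1 and 0. Glul, the glutamine synthetase with which astrocytes turn glutamate into glutamine, was the 1 of 14 genes for glutamate synthesis and transport called. It had 1700, 1542 and 1895 CPM in CT-26 and 1076, 1175 and 1289 CPM in control mice, a log2 fold change of 0.54 ± 0.09 (1.45-fold, adjusted p 0.00452 in edgeR), and was called in all 6 fits that left out a mouse. Every CT-26 mouse was above every control mouse.

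**Figure D4:**
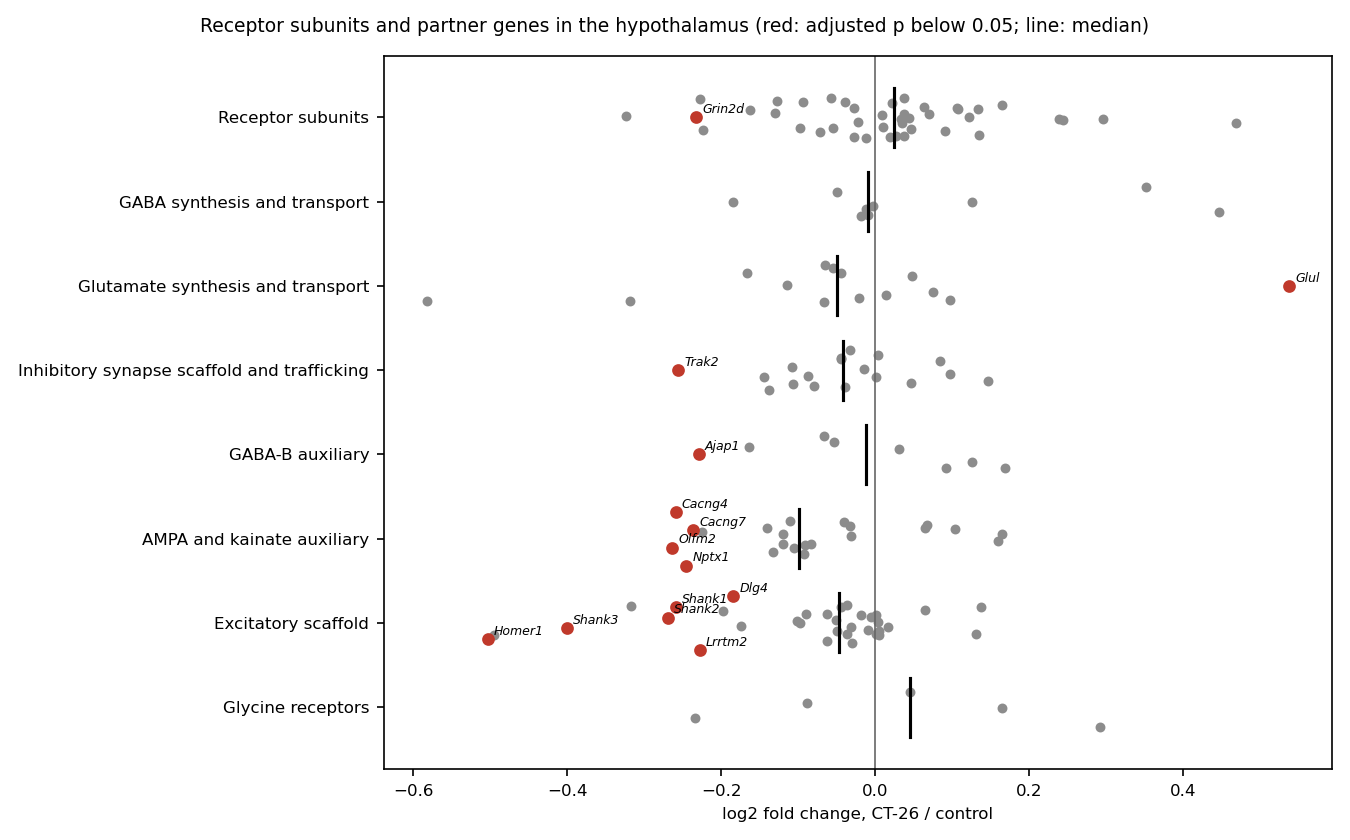
Log2 fold change (CT-26 over control) in the hypothalamus of the 42 receptor subunits and the 7 lists of partner genes, 1 point per gene with random vertical scatter; red points are called at an adjusted p below 0.05 and named, and black lines are medians. Red points lie to the left of 0 except Glul at 0.54.

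In the gastrocnemius the members together held 0.0006 to 0.00155% of all TPM. Only 12 of the 46 passed the filter on low counts. Of the other 34, 5 (Gabrr3, Grm2, Grm3, Grm6 and Grm7) had 0 counts in all 6 libraries, 32 had at most 10 counts in every library, and the highest single value was 20 counts. Neuron markers were near 0 in this tissue: 6 of 8 did not pass the filter, and the 8 summed to 3.10 to 4.54 CPM in CT-26 and 4.98 to 5.83 CPM in control mice.

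Of the 12 members tested 6 were called, 3 higher and 3 lower, against 38.0% of all 14265 genes (19.6% called higher and 18.3% lower). All calls were 2801 higher and 2616 lower; with library totals alone they were 3957 and 1662 and with limma on TPM 4473 and 1018, and these scalings moved the median of all genes to 0.20 and 0.28 on the log2 scale. The groups did not overlap in CPM for the same 6 of 12, against 51.7% of all genes. The rho subunits Gabrr2 and Gabrr1 and the GABA-B subunit Gabbr2 rose, and the GABA-A subunits Gabrd and Gabra3 and the AMPA subunit Gria3 fell. Gabrr1 and Gabbr2 passed the filter only through the CT-26 libraries and Gabrd, Gabra3 and Gria3 only through the control libraries, so the 12 that passed do not stand for the 46.

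Gabrr2 (ENSMUSG00000023267, chromosome 4, 33062999 to 33095865, plus strand) had 179, 98 and 74 counts in CT-26 and 20, 19 and 22 counts in control mice. In CPM these were 3.79, 3.79 and 2.21 against 0.730, 0.696 and 0.782, a log2 fold change of 2.14 ± 0.28 (4.42-fold, adjusted p 0.00103 in edgeR). All CT-26 mice lay above all control mice. In TPM, Gabrr2 averaged 2.48 ± 0.87 in CT-26 muscle and 0.45 ± 0.08 in control muscle (SD, n = 3 each), and the hypothalamus of the same mice had 0.60.

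Gabrr1 (ENSMUSG00000028280, chromosome 4, 33132521 to 33163588, plus strand) is the next coding gene after Gabrr2, and both together span 101 kb with no other coding gene. It had 20, 9 and 17 counts in CT-26 and 1, 0 and 0 counts in control mice. The summed counts, scaled for depth, differed 35.8-fold, with a 95% interval from 6.11 to 1443 that covers counting error only (exact binomial). The fitted log2 fold change was 4.76 ± 0.72 (adjusted p 0.00184 in edgeR) and depends on the prior count; without control mouse 1, which leaves the control libraries at 0 counts, it was 6.81, and the call was kept. In the hypothalamus Gabrr1 did not pass the filter.

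Gabbr2 (ENSMUSG00000039809, chromosome 4, 46662305 to 46991873, minus strand) had 71, 13 and 23 counts in CT-26 and 1, 2 and 1 counts in control mice. The depth-scaled ratio of the sums was 20.8, with a 95% counting interval from 7.89 to 77.7, and the fitted log2 fold change was 4.15 ± 0.65 (adjusted p 0.00214 in edgeR). The highest value was that of CT-26 mouse 1, at 1.504 CPM against 0.503 and 0.687 CPM in the other CT-26 mice. Without that mouse the log2 fold change was 3.52 and the call was kept. Its partner Gabbr1 was the most abundant member in muscle, with 13.7, 6.23 and 7.77 CPM in CT-26 and 7.71, 7.22 and 7.43 CPM in control mice. The groups overlapped and Gabbr1 was not called (0.32 ± 0.27, adjusted p 0.379).

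The upstream sequences of the members that changed in muscle are shown so that the adjacent rho genes, which rose together, can be set beside the others. Of the 46 members 31 had an entry in the RefSeq promoter table (GRCm38.p6), among them Gabrr2, Gabrr1, Gabbr2 and Gabra3. Each stretch is given 5′ to 3′ on the strand of the gene and ends before the first transcribed base of both RefSeq and GENCODE, and capitals mark a motif match.
Gabrr2, chr4:33062862-33062998, plus strand: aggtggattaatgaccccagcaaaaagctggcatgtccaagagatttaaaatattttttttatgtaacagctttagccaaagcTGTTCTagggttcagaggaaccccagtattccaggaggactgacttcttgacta
Gabrr1, chr4:33132306-33132520, plus strand: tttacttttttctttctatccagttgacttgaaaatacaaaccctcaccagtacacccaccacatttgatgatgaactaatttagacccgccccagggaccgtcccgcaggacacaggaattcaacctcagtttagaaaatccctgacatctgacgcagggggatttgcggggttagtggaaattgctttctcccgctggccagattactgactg
Gabbr2, chr4:46991874-46991964, minus strand: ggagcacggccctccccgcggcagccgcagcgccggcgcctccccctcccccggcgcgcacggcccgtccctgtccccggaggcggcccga
Gabra3, chrX:72656920-72657169, minus strand: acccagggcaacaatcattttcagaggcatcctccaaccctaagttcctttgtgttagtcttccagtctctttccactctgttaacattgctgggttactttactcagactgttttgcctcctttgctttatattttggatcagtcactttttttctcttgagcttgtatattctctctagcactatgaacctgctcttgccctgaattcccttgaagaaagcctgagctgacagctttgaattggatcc

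The stretches differed in base composition. That of Gabbr2 was 85.7% G and C with 15 CpG in 91 bases, while those of Gabrr2 (40.9%) and Gabra3 (42.4%) held no CpG and that of Gabrr1 (47.0%) held 6. Over all 32851 windows of 300 bases in the table the median was 52.7% G and C with 7 CpG, and over the 38 windows of members it was 60.2% with 12 CpG. Both strands were searched for 5 motifs. The STAT motif TTCNNNGAA occurred in 8.30% of all windows and the FOXO motif GTAAACA in 3.65%. The steroid receptor hexamer AGAACA was in 19.0% of windows. The myogenic E-box CAGCTG was in 16.3%. The clock E-box CACGTG was in 7.15%. The printed stretches held 1 match, the hexamer in Gabrr2, read there on the other strand and overlapping no other motif. The 300-base window of Gabrr1 held 1 FOXO match outside the printed bases. A match is a run of letters and not a site shown to be bound.

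Gabrd (ENSMUSG00000029054, chromosome 4, 155384980 to 155398112, minus strand), the delta subunit, fell the most among members. It had 4, 3 and 4 counts in CT-26 and 38, 21 and 34 counts in control mice, or 0.0847, 0.116 and 0.120 CPM against 1.39, 0.770 and 1.21 CPM. The log2 fold change was -3.38 ± 0.40 (10.4-fold lower, adjusted p 0.000682 in edgeR), and the groups lay far apart.

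Gabra3 (ENSMUSG00000031343, chromosome X, 72432681 to 72656848, minus strand) had 8, 6 and 7 counts in CT-26 and 23, 20 and 14 counts in control mice. Its log2 fold change was -1.77 ± 0.36 (3.41-fold lower, adjusted p 0.00619 in edgeR). Gria3 (ENSMUSG00000001986, chromosome X, 41400854 to 41678601, plus strand) had 11, 12 and 5 counts against 38, 51 and 22 counts, with a log2 fold change of -2.30 ± 0.48 (4.92-fold lower, adjusted p 0.00682). Both were lower in all CT-26 mice. On log2(TPM + 0.5) with limma neither was called, with log2 fold changes of -0.27 for Gabra3 and -0.32 for Gria3 and adjusted p of 0.0712 and 0.117. On that scale, which understates the change of low genes, the other 4 kept their calls, with log2 fold changes of 1.605 for Gabrr2, 0.56 for Gabrr1, 0.45 for Gabbr2 and -0.92 for Gabrd.

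**Figure D5:**
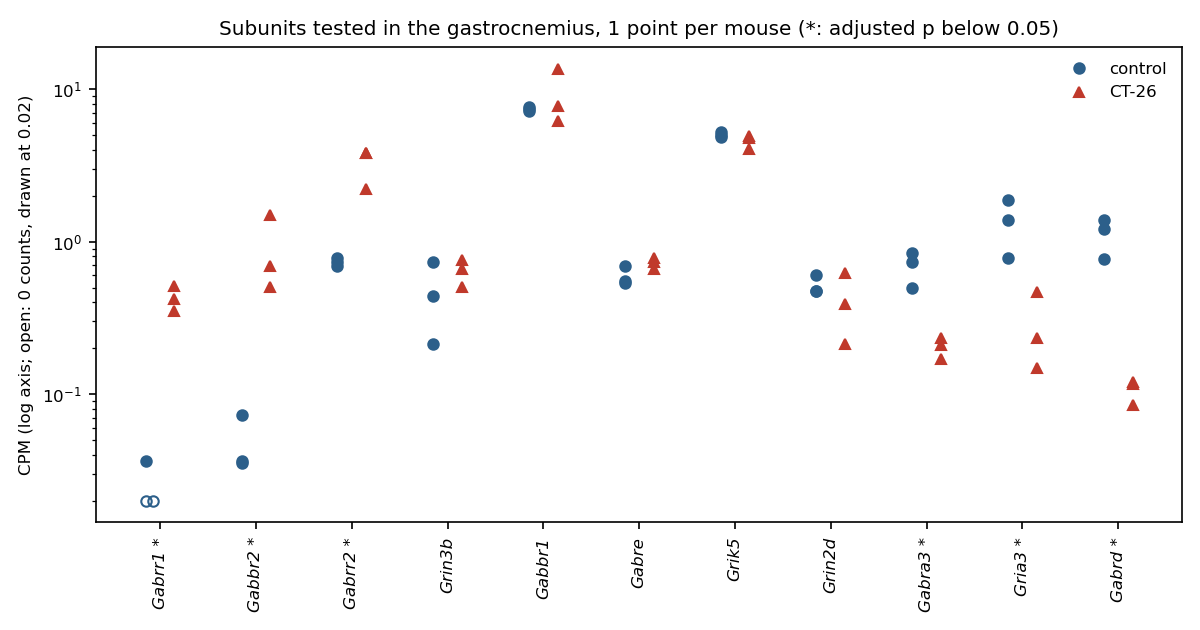
CPM on a log axis of 11 members tested in the gastrocnemius, ordered from the highest to the lowest log2 fold change, with 1 blue circle per control mouse and 1 red triangle per CT-26 mouse; open symbols are 0 counts drawn at 0.02, and asterisks mark an adjusted p below 0.05. The groups are apart for the 3 genes at the left and the 3 at the right and overlap for the 5 between them.

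The 6 members tested and not called, among them Gabbr1, Grik5, Grin3b, Gabre and Grin2d, had log2 fold changes from -0.42 to 0.50. Grik5 had 4.93, 4.80 and 4.04 CPM in CT-26 and 5.26, 4.98 and 4.87 CPM in control mice (-0.13 ± 0.15). The exons of Grin3b overlap those of Tmem259 on the other strand over 32.1% of their length, so its values are uncertain in both tissues.

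Markers of other cell types moved with these results in muscle. The 7 Schwann cell markers summed to 39.5 to 52.0 CPM in CT-26 and 93.4 to 126.5 CPM in control mice, and 6 of 7 were called lower. The 4 fibroblast markers summed to 34.4 to 58.7 CPM against 101.4 to 122.4 CPM, with 3 called lower. The 8 neutrophil markers, a list added from known results, summed to 146.1, 28.3 and 21.8 CPM in CT-26 mice 1 to 3 and to 0.511 to 0.889 CPM in control mice. Of these, 6 of 6 tested were called higher. This was not particular to muscle. In the hypothalamus the 8 summed to 99.1, 33.4 and 13.1 CPM in CT-26 mice 1 to 3 and 4.41 to 5.77 CPM in control mice. There 5 of 6 tested were called higher. The 3 satellite cell markers summed to 54.1 to 62.8 CPM against 18.0 to 19.9 CPM, with 1 called, higher. The median log2 fold change over these 3 was only 0.17, so the sum does not stand for each of them. In CT-26 mice 1 to 3 Gabbr2 had 1.504, 0.503 and 0.687 CPM and Gabrr2 had 3.79, 3.79 and 2.21 CPM. The part of these cell types in the changes of the members was not tested.

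Partner genes in muscle held 8 calls higher and 18 lower among 56 tested (46.4%, against 38.0% of all genes). The split between directions moved with the scaling: it was 14 higher and 15 lower with library totals and 15 higher and 12 lower with limma on TPM. All 3 GABA-B auxiliary genes tested were lower (1 of them was called with limma on TPM): the receptor-bound subunits Kctd12 and Kctd12b and the potassium channel Kcnj3, at -0.85 ± 0.15, -1.03 ± 0.26 and -2.37 ± 0.57 (adjusted p 0.0036, 0.0155 and 0.013 in edgeR). Kctd12 kept its call in all 6 fits that left out a mouse. Kctd12b lost it in 3 (without CT-26 mouse 1, control mouse 1 or control mouse 3) and Kcnj3 in 1 (without control mouse 1). Of 15 inhibitory scaffold and trafficking genes tested 4 were higher and 5 lower, the latter 33.3% against 18.3% of all genes. With library totals they were 6 and 4 and with limma 6 and 3. Of all genes 19.6% were called higher. Insyn1, an inhibitory synapse protein, fell by 1.41 ± 0.14 on the log2 scale (adjusted p 0.000388). Gabarap, which binds GABA-A receptors and also serves autophagy, rose by 1.16 ± 0.14 (adjusted p 0.00083), with 276.1, 294.0 and 350.4 CPM in CT-26 and 129.2, 133.8 and 149.6 CPM in control mice.

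On the glutamate side, Neto2, an auxiliary subunit of kainate receptors, fell the most. It had 0.805, 1.59 and 1.26 CPM in CT-26 and 15.9, 11.7 and 13.2 CPM in control mice, a log2 fold change of -3.52 ± 0.25 (11.5-fold lower, adjusted p 0.000146 in edgeR). Of the 7 AMPA and kainate auxiliary genes tested 3 were lower (42.9%, against 18.3% of all genes), among them Cacng7 (-1.14 ± 0.26). There was 1 higher, Cacng4 (2.03 ± 0.56), whose call was lost without CT-26 mouse 1, control mouse 1 or control mouse 3. Of 18 excitatory scaffold genes tested 5 were lower (27.8%, against 18.3% of all genes) and none higher, led by Dlg4 (-1.67 ± 0.21, adjusted p 0.000855), Homer1 (-0.96 ± 0.16) and Grip2 (-1.23 ± 0.23), and with each mouse left out 4 to 8 were lower. That none was higher depended on the fit: 2 were higher and 4 lower with library totals, 3 and 4 with limma on TPM, and 2 and 5 without CT-26 mouse 3. Glul rose in muscle too, with 722, 568 and 799 CPM in CT-26 and 202, 210 and 296 CPM in control mice (1.56 ± 0.21, 2.95-fold, adjusted p 0.00107). The glutamate transporter Slc1a3 fell by 1.61 ± 0.25 and the glutamine transporter Slc38a2 was higher by 0.72 ± 0.20, the latter call being kept in 2 of 6 fits that left out a mouse (without CT-26 mouse 2 or control mouse 3). Of 4 genes for GABA synthesis and transport tested, the betaine and GABA transporter Slc6a12 rose by 2.90 ± 0.48 and the GABA transporter Slc6a13 fell by 2.27 ± 0.46 (adjusted p 0.00282 and 0.00593). Both calls were kept in all 6 fits that left out a mouse. Under the stricter filter at 1 CPM, however, this list had 0 higher and 0 lower calls. Over the other settings the log2 fold changes were as small as 0.864 for Slc6a12 and -0.386 for Slc6a13, so their sizes are uncertain.

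The last comparison asked whether a member changed differently in the 2 tissues, as the interaction term of 1 edgeR fit over all 12 libraries. Of the 11 members tested in both tissues 5 were called, against 33.2% of 13572 genes. Of these 5, Gabbr2 passed the muscle filter only through the CT-26 libraries and Gabrd, Gabra3 and Gria3 only through the control libraries. The 5 of 11 is therefore no measure of the members as a whole. Relative to its change in the hypothalamus, Gabbr2 changed in muscle by 4.34 ± 0.62 more and Gabrr2 by 1.99 ± 0.51 more on the log2 scale (adjusted p 0.000303 and 0.0114). Gabrd, Gria3 and Gabra3 changed by -3.66 ± 0.45, -2.41 ± 0.40 and -1.77 ± 0.28 in muscle relative to the hypothalamus (adjusted p 0.000114, 0.000833 and 0.000615). In the hypothalamus alone these 5 genes had log2 fold changes of -0.09 (Gabbr2), 0.13 (Gabrr2), 0.24 (Gabrd), 0.06 (Gria3) and -0.04 (Gabra3), and none was called there.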

How the data were processed

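Total RNA (TRIzol) was made into libraries with a directional MGIEasy kit and read as 100-base pairs on an MGISEQ-2000, per the labels' protocols. The submitters' processing notes name the build GRCm38 and the tools RSEM 1.3.3, STAR 2.7.9a and Trim Galore 0.6.6, without their settings; annotation release and strand setting are not given in the sources used here. The deposited gene tables hold expected counts (estimated fragments per gene), TPM and an effective length per gene. Symbols for 52135 identifiers, and coordinates, came from GENCODE M21 (GRCm38).

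Expected counts were rounded. Each tissue's 6 libraries were fitted with edgeR 4.0.16 (R 4.3.3): filterByExpr, TMM scaling, quasi-likelihood test, Benjamini-Hochberg adjustment over all genes tested, called at adjusted p below 0.05. CPM is TMM-scaled. Between-gene levels use the authors' TPM. The interaction fit held all 12 libraries. Alternatives were DESeq2 1.42.0, its size factors, library totals, limma 3.58.1 on log2(TPM + 0.5), no filter, a minimum of 1 CPM in 3 libraries, 1 fit of all 12 libraries, a replicate block and each mouse left out. Fits were tested on simulated data. False calls exceeded the nominal share in both tissues, more so in the hypothalamus. In the gastrocnemius most changes of 1.5-fold and of 2-fold were missed.

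Members and lists were chosen with earlier results of these data known. Full values are given for called members, for the most abundant member of each subfamily in the hypothalamus and for Gabbr2, and the text names up to 3 called partner genes of smallest p per list and tissue; others were named after their values were seen. A few genes that were tested and counted are not reported here one by one. Mouse numbers pair tissues of the same mouse per the labels; correlations of the paired deviations were -0.102 to 0.176. Of the list genes 111 of 113 were matched.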

Additional observations from a re-analysis of the deposited data

Results flagged for a closer look

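In 5 members the change with CT-26 differed between the tissues by the test of the difference itself (edgeR interaction, Benjamini-Hochberg adjustment). The log2 change in the hypothalamus minus that in the gastrocnemius was -4.34 for Gabbr2, 1.77 for Gabra3 (1.765 before rounding), 3.66 for Gabrd, -1.99 for Gabrr2 and 2.41 for Gria3. With the mouse as a block these 5 were called as well. Gabbr2, Gabrd, Gabra3 and Gria3 rest on few counts in 1 of the muscle groups. These were at most 2 per control library for Gabbr2 and at most 4 per CT-26 library for Gabrd. In CT-26 libraries Gabra3 had at most 8 and Gria3 at most 12, and in muscle neither was called with limma on TPM. All 4 passed the muscle filter only through the group in which they were high.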

How the results depend on the processing

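In the hypothalamus 1 member was called with the settings of the report. No member was called with DESeq2's size factors, with library totals, with limma on TPM, with a minimum of 1 CPM, with all 12 libraries in 1 fit or with the replicate block (each 0), while DESeq2's test called 2 and the fit with no filter 5; leaving out 1 mouse gave 0 to 2. The 1575 genes called there became 162 with all 12 libraries, 520 with limma, 2598 with no filter and 576 to 1266 with 1 mouse left out. The 13 partner genes became 0 with all 12 libraries, 4 with limma, 8 with the replicate block and 4 to 10 with 1 mouse left out. In the gastrocnemius the 6 members became 11 with all 12 libraries, which tests 43 members, and 1 with a minimum of 1 CPM, which tests 3; the 6 calls were kept with each mouse left out, with the replicate block and with DESeq2. The 26 partner genes became 47 with all 12 libraries and 20 to 30 with 1 mouse left out, and the 5417 genes 3547 to 5450. The 5 interaction calls were kept except that Gabrd was not tested at a minimum of 1 CPM, which left 4. Where no cause is named, the cause was not tested. Grm2, never called, went from 0.30 to -0.10 without control mouse 1, and no called result changed direction. Of the values of single named genes 464 kept their side of the threshold and 68 lost it. All 112 ratio values moved by less than 1 SD. Leaving out 1 of 3 mice cannot move a group mean by 1 SD of that group, so this count is no sign of stability. Replicate numbers within a tissue name different mice: same-numbered mice of the groups correlated at -0.0786, 0.227 and 0.340 in the gastrocnemius and at -0.125, -0.0538 and -0.0250 in the hypothalamus, so the block pairs no samples.

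With 3 mice a group, members under about 10 counts in a library, which is most of them in muscle, could not be tested, and an absence of a call there is no sign that a gene did not change.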
